A study of Mus musculus with 3 samples.

Results

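The G2 and mitosis genes described here are 40 genes that dividing cells transcribe as they finish copying their DNA and separate their chromosomes. They are a list of gene symbols with no threshold on a measured value, drawn up with earlier results of these data known. All 40 were found among the 31730 genes of the deposited matrix. Entry into mitosis is driven by cyclin-dependent kinase 1 bound to A- and B-type cyclins, and exit from it by the anaphase-promoting complex, a ubiquitin ligase that marks cyclins and securin for destruction. The mRNAs of these genes are low in G1, build up through S and G2, and are highest around mitosis, when the spindle, the kinetochores and the cytokinesis machinery are assembled. Much of this timing is attributed to promoters that carry CCAAT boxes, bound by NF-Y, and a cell cycle genes homology region (CHR), bound by the DREAM and B-Myb-FoxM1 complexes.

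The cells came from the lungs of mouse pups in which every animal carried Fgf18CreERT2/+ together with the reporters ROSATDTomato/+ and PdgfrαEGFP/+, so that all groups have 1 Fgf18 allele with the inducible recombinase. The groups differ in the sort gate, and each gate was also its own sequencing library, so gate and library cannot be told apart. Tamoxifen was given from postnatal day 2 to 5 and lungs were taken on postnatal day 7. Live cells were sorted into GFP-high tdT-high, GFP-high tdT-negative and GFP-low tdT-negative fractions, and each was made into 1 single-cell library; how many pups went into each is not stated. GFP reports Pdgfrα, a receptor of lung mesenchyme, and tdTomato marks cells, and their descendants, in which Fgf18-driven recombinase was active during the tamoxifen days. The libraries hold 1511, 3347 and 1284 cells, with medians of 22401, 19629 and 19798.5 unique molecular identifiers (UMIs, each 1 captured mRNA molecule) per cell. As each gate was sequenced once, replicate error is unknown and no p-value is given. Every interval is a 95% interval for counting error alone, and 4 cell barcodes occurred in more than 1 library.

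The authors gave each cell a type, and 3 of the 10 types are dividing fibroblasts: DivFB-S with 39 cells, DivFB-S/G2M with 90 and DivFB-G2M with 118, together 247 of 6142 cells. The names were made from the same cells by steps that the sources used here do not give, so the order of the genes over them is a description. By gate, the 42 dividing cells of the GFP-high tdT-high library were 11 DivFB-S, 16 DivFB-S/G2M and 15 DivFB-G2M, the 190 of the GFP-high tdT-negative library were 28, 71 and 91, and the 15 of the GFP-low tdT-negative library were 0, 3 and 12. Markers of lung alveolar fibroblasts, such as Mfap4, summed to 7869 CPM in the GFP-low DivFB-S/G2M cells (9 of 10 markers with a UMI) and 7899 CPM in the GFP-low DivFB-G2M cells (10 of 10), against 88.7 to 198 CPM in the dividing cells of both GFP-high libraries (CPM, UMIs of a gene per 1e+06 UMIs of the group). Myofibroblast markers summed to 4553 and 2311 CPM in the same GFP-low DivFB-S/G2M and DivFB-G2M cells, against 3718 to 5666 CPM in the GFP-high dividing cells. In the 3 GFP-low DivFB-S/G2M cells Hhip was the highest of them, at 1817 CPM, where Tgfbi or Tagln was highest in the GFP-high groups. Hhip was also the highest of this list in GFP-low MatFB-Type 2 cells, a name outside the dividing ones, at 384 of 936 CPM. Adventitial fibroblast markers summed to 1959 and 935 CPM in the GFP-low DivFB-S/G2M and DivFB-G2M cells, against 3.28 to 143 CPM in the GFP-high dividing cells. Only 4 of 10 of these markers had a UMI in each GFP-low group, and Gpc3 alone was at 1182 and 675 CPM. The GFP-low MatFB-Type 2 cells summed to 1429 CPM on the same list, with Gpc3 at 872 CPM. The part of these marker differences in the results was not tested, and the 2 GFP-high libraries are given apart wherever the groups allow. Epithelial markers summed to at most 40.4 CPM (Hopx 22.0) and immune markers to at most 55.8 CPM (Lyz2 23.0) in any dividing name of any library. Endothelial markers reached 108 CPM (Ramp2 85.4), pericyte markers 98.6 CPM, mesothelial markers 44.0 CPM and erythroid markers 32.8 CPM. Smooth muscle markers summed to 260 to 1196 CPM, led by Myh11.

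As groups, the 40 genes were low in DivFB-S, highest in DivFB-S/G2M and intermediate in DivFB-G2M. Their summed level was 1260 CPM (1191 to 1332) in DivFB-S, 13496 CPM (13358 to 13636) in DivFB-S/G2M and 6883 CPM (6779 to 6987) in DivFB-G2M. Of the 40, 37 were highest in DivFB-S/G2M, 3 in DivFB-G2M (Ccnb2, Cenpa and Kif20a) and 0 in DivFB-S, where 25.9%, 40.3% and 33.8% of the 14850 genes with at least 10 UMIs over the 3 names were highest. The name that joins S with G2/M thus held more of these transcripts than the name that carries G2/M alone, and the order did not rest on 1 library. The sum was 913 CPM in DivFB-S, 10194.5 CPM in DivFB-S/G2M and 7515 CPM in DivFB-G2M of the GFP-high tdT-high library. Among GFP-high tdT-negative cells the same sums were 1414, 14211 and 6941 CPM. The 3 DivFB-S/G2M and 12 DivFB-G2M cells sorted as GFP-low tdT-negative gave 15421.5 and 5672 CPM.

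**Figure D1:**
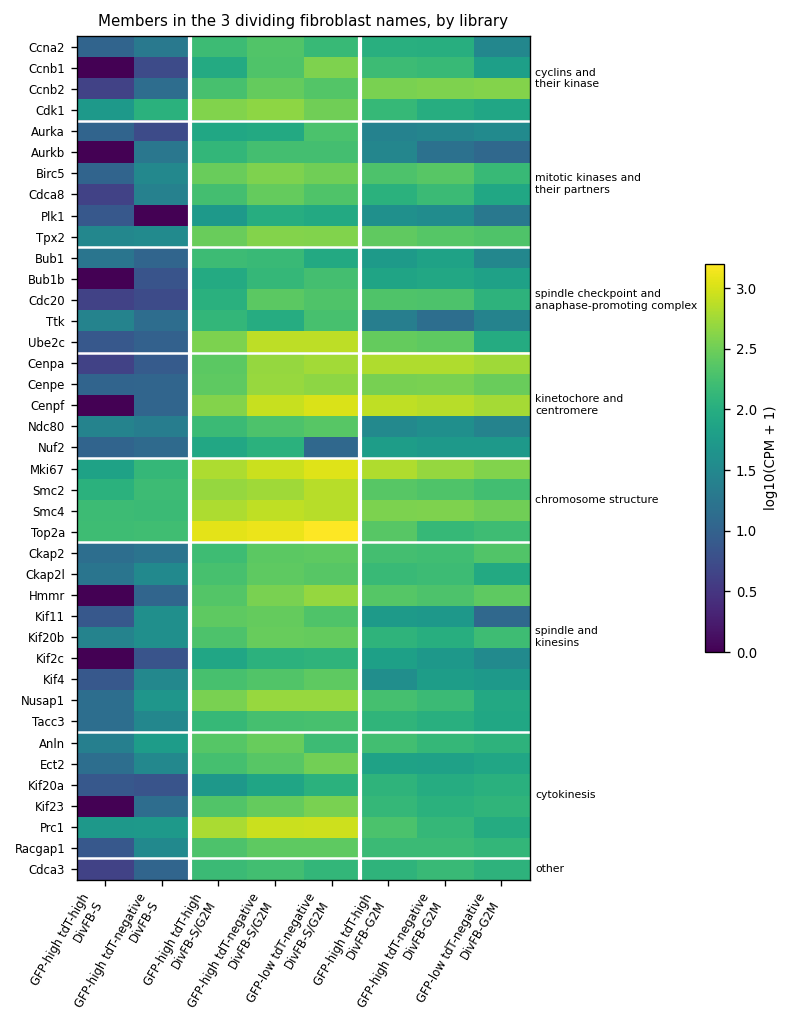
Level of each of the 40 genes, as log10(CPM + 1) in colour, in the dividing names from DivFB-S to DivFB-G2M (blocks of columns) in each library; rows are grouped by role. The middle block is brightest for most rows, and Ccnb2, Cenpa and Kif20a are brighter in the right block when libraries are summed.

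Both steps were counted with a threshold of 2-fold on the log2(CPM + 1) scale. All 40 genes were at least 2-fold higher in DivFB-S/G2M than in DivFB-S, against 9.0% of all genes counted (0 were at least 2-fold lower, against 6.36%), with a median log2 ratio of 3.61 (all genes -0.03). DivFB-G2M over DivFB-S gave 33 genes past 2-fold upward and 0 downward, against 9.66% and 8.22% of all genes, with a median of 2.41 (all genes 0.07). DivFB-G2M over DivFB-S/G2M gave 20 genes at least 2-fold lower and 0 higher, against 7.60% and 5.27% of all genes, with a median of -1.02 (all genes 0.10). This last comparison was added after the values were seen. Among GFP-high tdT-high cells 12 genes were lower and 2 higher by it, among GFP-high tdT-negative cells 22 and 0, and among GFP-low tdT-negative cells, with 3 DivFB-S/G2M cells, 26 and 1. DivFB-G2M over DivFB-S gave 37 genes higher in the GFP-high tdT-high library and 32 among GFP-high tdT-negative cells. Over DivFB-S, the 6 genes with the highest log2 ratio in DivFB-G2M were Cenpa at 6.53, Cenpf at 6.48, Cdc20 at 5.28, Ccnb2 at 5.10, Ccnb1 at 5.08 and Cenpe at 4.97, and the 6 lowest were Ttk at -0.10, Top2a at -0.08, Cdk1 at 0.15, Aurkb at 0.40, Smc2 at 0.54 and Ndc80 at 0.59. Close to the 2-fold line of DivFB-G2M over DivFB-S/G2M stood Anln at -0.99, Cdca8 at -0.92 and Nuf2 at -0.91 outside it, and Smc4 at -1.04, Kif2c at -1.07 and Ccna2 at -1.11 inside it.

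Among the 35 genes with an entry in the RefSeq table, those at the ends of the last comparison are shown with the 150 bases before their start, because the promoter elements named above are read there. Kif20a, at a log2 ratio of 0.47, and Aurkb, the lowest at -3.27, have no entry and are not shown. The sequences are from the RefSeq table for GRCm38.p6, are written 5′ to 3′ on the strand of the gene, and have in capitals each CCAAT box and each CHR core, both read on either strand. The CHR core was searched as TTTGAA and also as TTCGAA, and the motifs do not overlap in these windows. The first 4 genes were near or above their DivFB-S/G2M level in DivFB-G2M: Ccnb2 (chr9:70421555-70421704, minus strand), Cenpa (chr5:30666736-30666885, plus strand), Cenpf (chr1:189688087-189688236, minus strand) and Cdc20 (chr4:118437344-118437493, minus strand).
Ccnb2: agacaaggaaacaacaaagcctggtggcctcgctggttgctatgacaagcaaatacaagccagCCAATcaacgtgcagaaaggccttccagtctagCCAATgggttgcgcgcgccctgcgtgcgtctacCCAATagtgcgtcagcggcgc
Cenpa: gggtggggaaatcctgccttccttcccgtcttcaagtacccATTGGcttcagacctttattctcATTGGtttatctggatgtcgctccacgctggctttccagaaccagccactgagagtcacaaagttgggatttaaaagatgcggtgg
Cenpf: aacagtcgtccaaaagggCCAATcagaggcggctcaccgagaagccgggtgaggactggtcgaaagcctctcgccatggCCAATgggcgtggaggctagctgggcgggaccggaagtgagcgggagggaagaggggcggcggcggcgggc
Cdc20: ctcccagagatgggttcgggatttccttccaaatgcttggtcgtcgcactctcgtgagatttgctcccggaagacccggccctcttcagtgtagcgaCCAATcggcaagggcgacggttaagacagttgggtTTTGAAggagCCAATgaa

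The other 4 were far lower in DivFB-G2M than in DivFB-S/G2M: Top2a (chr11:99024190-99024339, minus strand), Ttk (chr9:83834539-83834688, plus strand), Prc1 (chr7:80294301-80294450, plus strand) and Kif11 (chr19:37376232-37376381, plus strand).
Top2a: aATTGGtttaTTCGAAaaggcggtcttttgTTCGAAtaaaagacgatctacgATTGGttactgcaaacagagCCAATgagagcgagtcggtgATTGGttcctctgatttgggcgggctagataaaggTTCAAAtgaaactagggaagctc
Ttk: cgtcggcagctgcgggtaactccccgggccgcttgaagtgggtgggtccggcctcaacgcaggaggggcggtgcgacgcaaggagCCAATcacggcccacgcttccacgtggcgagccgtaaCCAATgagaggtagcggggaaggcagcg
Prc1: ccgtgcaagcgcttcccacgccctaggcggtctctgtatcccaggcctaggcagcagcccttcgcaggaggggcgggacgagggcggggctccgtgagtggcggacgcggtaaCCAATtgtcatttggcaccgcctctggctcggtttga
Kif11: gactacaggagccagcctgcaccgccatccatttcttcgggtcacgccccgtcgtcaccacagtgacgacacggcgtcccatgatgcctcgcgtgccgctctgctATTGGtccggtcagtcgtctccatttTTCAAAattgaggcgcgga

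Both sets held CCAAT, with 3 in Ccnb2, 2 each in Cenpa, Cenpf, Cdc20 and Ttk, 4 in Top2a and 1 each in Prc1 and Kif11. A CHR core lay 12 bases before the start of Cdc20, 13 before that of Kif11 and 17 before that of Top2a, which had 3 in this window. Beyond the bases shown, Ccnb2 had a CHR core 161 bases before its start and Top2a a further 1 at 173. In the full 250 bases before the start, 27 of the 35 genes with an entry (77.1%) held CCAAT and 14 (40.0%) a CHR core, where 37.5% and 19.6% of all 27025 genes of the table did. At least 2 CCAAT were found in 51.4% of the 35, against 11.5% of all genes, and both motifs in 37.1%, against 7.0%. For a list of S phase genes the shares were 62.1% for CCAAT and 17.2% for CHR over 29 genes, and for a list of other G2 and mitosis genes 60.9% and 42.2% over 64. These matches describe letters in a window and not binding. The RefSeq start can differ from the gene models of GENCODE on the same build: 109 of the 150 bases shown for Cenpa, 9 of those for Cdc20 and 1 of those for Prc1 lie inside the GENCODE gene, and 28 of 37 start regions listed for the 40 genes lie at the 5′ end of a GENCODE transcript. A second annotated start of Prc1 moved the window by 25 bases and brought in a CHR core 24 bases before it.

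Among the cyclins and their kinase, Ccnb2 and Cdk1 went different ways between the last 2 names. Ccnb2, the cyclin B2 that partners the kinase at the Golgi, was at 10.1 CPM in DivFB-S, 260.0 CPM in DivFB-S/G2M and 380.2 CPM in DivFB-G2M. Its ratio of DivFB-G2M over DivFB-S/G2M was 1.46 (1.32 to 1.62), and it was higher in DivFB-G2M in all 3 libraries, at 354 against 185, 382 against 280 and 399.9 against 219 CPM among GFP-high tdT-high, GFP-high tdT-negative and GFP-low tdT-negative cells. Cdk1, the kinase itself, was at 91.8, 436 and 102 CPM over the 3 names, so that DivFB-G2M held 0.233 (0.202 to 0.267) of the level of DivFB-S/G2M and the same as DivFB-S within counting error, at a ratio of 1.11 (0.868 to 1.43). Ccna2, the cyclin A2 of S phase and G2, was at 16.1, 201 and 92.3 CPM, and Ccnb1, the main mitotic cyclin, at 3.02, 192 and 135 CPM. Only 3 UMIs of Ccnb1 lay in the 39 DivFB-S cells, and its ratio of DivFB-G2M over DivFB-S was 44.6 (15.1 to 217). The direction of this last step differed by library for Ccnb1, with 156 CPM in DivFB-G2M against 88.7 CPM in DivFB-S/G2M of the GFP-high tdT-high library, and 142 against 209 CPM among GFP-high tdT-negative cells.

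All 6 mitotic kinases and their partners were highest in DivFB-S/G2M. Aurkb, the Aurora kinase of the chromosomal passenger complex, had the lowest ratio of all 40 genes, with 16.3 CPM in DivFB-G2M against 166 CPM in DivFB-S/G2M, a ratio of 0.0985 (0.0694 to 0.136). A UMI of Aurkb was found in 15.4% of DivFB-S, 91.1% of DivFB-S/G2M and 18.6% of DivFB-G2M cells, and, with every cell thinned to 5000 UMIs, in 5.13%, 52.2% and 6.78%. Its partners in the complex, Birc5 (survivin) and Cdca8 (borealin), were less far apart, at 217 against 362 CPM and 136 against 258 CPM. Aurka, the Aurora kinase of centrosomes, was at 27.8 CPM in DivFB-G2M against 89.4 CPM in DivFB-S/G2M, and Tpx2, which activates it on the spindle, at 230.3 against 383 CPM. Plk1, the Polo-like kinase of mitotic entry, was at 33.5 against 88.6 CPM, and its 2 UMIs in DivFB-S cells leave the ratio of DivFB-G2M over DivFB-S at 16.6 (4.45 to 139). The unequal step of the 3 passenger genes was seen in every library, with log2 ratios from -2.16 to -3.87 for Aurkb, -0.55 to -1.14 for Birc5 and -0.66 to -1.35 for Cdca8.

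The spindle checkpoint genes split in the same way. Ttk, the Mps1 kinase that starts checkpoint signalling, was at 17.1, 105 and 15.9 CPM over the 3 names, with a ratio of DivFB-G2M over DivFB-S/G2M of 0.152 (0.106 to 0.213). It was the gene with the lowest ratio of DivFB-G2M over DivFB-S, at 0.929 (0.513 to 1.75). Bub1, which recruits checkpoint proteins to kinetochores, was at 12.1, 147 and 62.5 CPM, and Bub1b (BubR1) at 4.03, 127 and 78.8 CPM. Cdc20, the activator of the anaphase-promoting complex, was at 4.03, 218 and 195 CPM, a ratio of 0.892 (0.789 to 1.01) between the last 2 names. Ube2c, the E2 enzyme of that complex, was at 8.07, 683 and 238 CPM, a ratio of 0.349 (0.317 to 0.383). The activator and the E2 enzyme of 1 complex therefore differed in this step beyond their counting intervals. Cdc20 was higher in DivFB-G2M than in DivFB-S/G2M of the GFP-high tdT-high library (209.5 against 106 CPM) and lower among GFP-high tdT-negative cells (204 against 246 CPM).

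Of the 5 kinetochore and centromere genes, 3 stayed near or above their level of DivFB-S/G2M. Cenpa, the histone H3 variant that marks centromeres, was at 6.05, 447 and 651 CPM, a ratio of 1.46 (1.35 to 1.57) between the last 2 names. Cenpf, a large coiled-coil protein of the outer kinetochore, was at 7.06, 778 and 716 CPM, a ratio of 0.920 (0.863 to 0.980), and Cenpe, the kinetochore kinesin, at 10.1, 459 and 347 CPM. Among GFP-high tdT-high cells Cenpf and Cenpe were higher in DivFB-G2M, at 782 against 402 CPM and 351 against 256 CPM, and among GFP-low tdT-negative cells Cenpa was not, at 547 against 569 CPM. The Ndc80 complex subunits Ndc80 and Nuf2, which bind microtubules as partners, were not alike: Ndc80 was at 23.2, 192 and 35.5 CPM and Nuf2 at 11.1, 102 and 53.5 CPM. Their ratios of DivFB-G2M over DivFB-S/G2M were 0.185 (0.146 to 0.233) for Ndc80 and 0.526 (0.424 to 0.651) for Nuf2. Cenpf and Cenpa were found in 15.4% of DivFB-S cells each, and in 100% and 99.2% of DivFB-G2M cells.

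The 4 chromosome structure genes made up 571 of the 1260 CPM of the 40 genes in DivFB-S. Top2a, topoisomerase II alpha, which untangles sister chromatids, was at 163, 1276 and 154 CPM over the names. Its ratio of DivFB-G2M over DivFB-S/G2M was 0.121 (0.108 to 0.134), at 235 against 1169, 138 against 1272 and 158 against 1959 CPM among GFP-high tdT-high, GFP-high tdT-negative and GFP-low tdT-negative cells. Every library thus had Top2a far lower in DivFB-G2M, and the pooled DivFB-G2M and DivFB-S levels were within counting error at a ratio of 0.943 (0.782 to 1.14). Mki67, the Ki-67 protein that coats mitotic chromosomes, was less far apart, at 509 CPM in DivFB-G2M against 838 CPM in DivFB-S/G2M, and was at 113 CPM in DivFB-S. In the GFP-high tdT-high library Mki67 was at 663 CPM in DivFB-G2M and 641 CPM in DivFB-S/G2M. The condensin subunits Smc2 and Smc4 were at 141, 543 and 205 CPM and at 153, 757 and 368 CPM.

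All 9 spindle genes and kinesins were highest in DivFB-S/G2M, and 5 of them were at least 2-fold lower in DivFB-G2M. Kif11 (Eg5), the motor that pushes spindle poles apart, was at 28.2, 270 and 45.7 CPM, a ratio between the last 2 names of 0.170 (0.138 to 0.207). Nusap1, a microtubule bundling protein, was at 36.3, 479.5 and 148 CPM, and the chromokinesin Kif4 at 23.2, 209 and 55.1 CPM. Hmmr and Ckap2, which bind spindle microtubules, kept more of their level, at 7.06, 339 and 209 CPM and at 15.1, 229 and 172 CPM. Both were slightly higher in DivFB-G2M among GFP-high tdT-high cells, at 224 against 217 CPM for Hmmr and 176 against 159.7 CPM for Ckap2. Among the 6 cytokinesis genes, Prc1, which bundles the microtubules of the central spindle, was at 51.4, 830.3 and 139 CPM, a ratio of 0.168 (0.149 to 0.188). Kif20a (MKlp2), the kinesin that carries the passenger complex to the same midzone, was at 6.05, 71.6 and 99.2 CPM, a ratio of 1.39 (1.14 to 1.68). It was at 119 against 49.3, 94.3 against 75.3 and 106 against 109 CPM in the libraries, so that the GFP-low tdT-negative cells did not share that direction. Kif23 and Racgap1, the 2 proteins of the centralspindlin complex, were at 0.430 (0.373 to 0.494) and 0.608 (0.533 to 0.693) of their DivFB-S/G2M level. The exons of 11 of the 40 genes overlap a gene on the opposite strand that is also in the matrix, Ccna2, Cdc20, Kif20a, Kif4, Nusap1, Plk1, Prc1, Tacc3, Ube2c, Cdca8 and Ckap2l, and since the sources used here do not give the strand setting of the counting, their levels are uncertain to that extent.

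**Figure D2:**
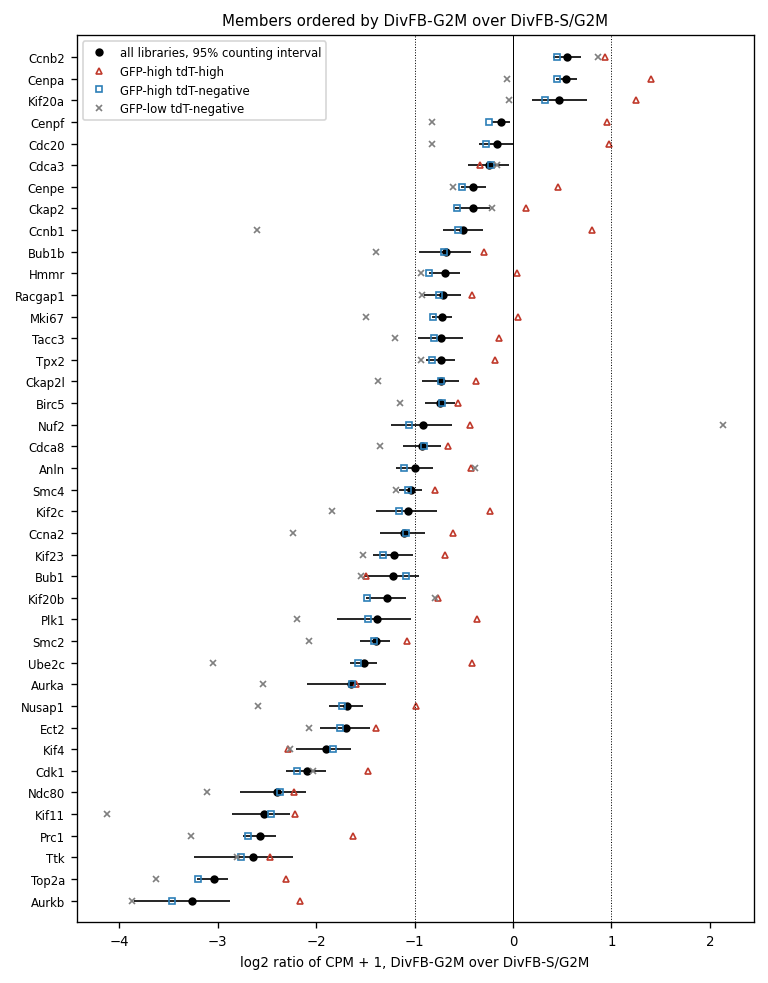
Log2 ratio of CPM + 1 of DivFB-G2M over DivFB-S/G2M for each gene, ordered by the ratio of all libraries summed (black, with the 95% counting interval of the ratio without the pseudocount) and with each library's own ratio as a symbol; dotted lines mark 2-fold. Values run from 0.55 for Ccnb2 to -3.27 for Aurkb, and the GFP-high tdT-high triangles lie to the right of the GFP-high tdT-negative squares for most genes.

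The other genes of the cycle, taken from lists written with earlier results of these data known, place the 3 names. The 40 genes of the S phase list (replication licensing, DNA synthesis and nucleotide supply) summed to 3725 CPM in DivFB-S, 2686 CPM in DivFB-S/G2M and 524 CPM in DivFB-G2M. Of them, 39 were at least 2-fold lower in DivFB-G2M than in DivFB-S, 40 were at least 2-fold lower than in DivFB-S/G2M, and 30 were highest in DivFB-S, against 8.22%, 7.60% and 33.8% of all genes. Of the replicative helicase, Mcm3 was at 157, 47.8 and 4.08 CPM and Mcm2 at 59.5, 23.0 and 2.86 CPM, and Ung, the uracil glycosylase, had 38.3 and 2.97 CPM and no UMI in DivFB-G2M. The least changed over DivFB-S were E2f8, Rrm1, Slbp and Rfc2, the last at 93.8, 80.1 and 29.4 CPM. Cdc6, which loads that helicase, was at 25.2, 10.8 and 0.817 CPM. Slbp, which binds histone mRNAs, was at 93.8, 97.5 and 37.2 CPM, and Rrm1, a ribonucleotide reductase subunit, at 95.8, 142 and 42.5 CPM. E2f8, an E2F repressor, was at 11.1, 57.5 and 7.35 CPM. DivFB-S/G2M thus held both sets of transcripts at once, and DivFB-G2M held the mitotic set with little of the other.

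Of 83 other G2 and mitosis genes, 79 were highest in DivFB-S/G2M and 4 in DivFB-G2M (25.9% and 40.3% of all genes), and 58 were at least 2-fold lower in DivFB-G2M than in DivFB-S/G2M (7.60% of all genes). The median log2 ratio of that step was -1.52 for these 83 and -1.02 for the 40. Over DivFB-S, DivFB-G2M had 43 of the 83 at least 2-fold higher and 8 lower (9.66% and 8.22% of all genes), with a median of 1.08, where the 40 had 33 and 0 and a median of 2.41. Fbxo5, an inhibitor of the anaphase-promoting complex, was at 21.2, 99.8 and 6.13 CPM over the names, and Ccnf, the cyclin F that directs another ubiquitin ligase, at 4.03, 93.8 and 10.2 CPM. At the other end stood Knstrn, a kinetochore protein, at 10.1, 140.2 and 192 CPM, and Pttg1, the securin that the complex destroys at anaphase, at 45.4, 145 and 182 CPM. Psrc1 had no UMI in DivFB-S, and was at 61.6 CPM in DivFB-S/G2M and 36.8 CPM in DivFB-G2M. Cdkn3, a phosphatase of cyclin-dependent kinases, was at 4.03, 83.4 and 83.3 CPM, and Cdc25c, the phosphatase that activates the mitotic kinase, at 1.01, 58.6 and 34.3 CPM. The condensin II subunit Ncapg2 was at 69.6, 156 and 21.6 CPM and the condensin I subunit Ncaph at 49.4, 94.6 and 16.3 CPM. Cenpk, a centromere protein, was at 85.7, 97.5 and 29.4 CPM.

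Of 29 regulators of the cycle, 17 were highest in DivFB-S/G2M, 7 in DivFB-S and 5 in DivFB-G2M, against 25.9%, 33.8% and 40.3% of all genes. Foxm1, the factor that acts on many G2 genes, was at 5.04, 61.2 and 28.2 CPM, and Mybl2 (B-Myb), its partner at CHR promoters, at 21.2, 25.2 and 5.31 CPM. The repressor E2f7 was at 48.4, 97.2 and 2.04 CPM, the activator E2f1 at 50.4, 15.6 and 4.08 CPM, E2f5 at 21.2, 42.3 and 40.8 CPM and the pocket protein gene Rbl1 at 70.6, 113 and 15.5 CPM. The D-type cyclins of G1 were highest in DivFB-S, with Ccnd1 at 154, 14.1 and 12.3 CPM and Ccnd2 at 313, 38.6 and 85.3 CPM. Ccnd3 was nearly even between DivFB-S and DivFB-G2M, at 245, 155 and 237 CPM over the 3 names. The kinase inhibitors Cdkn1b (p27) and Cdkn1c (p57) were at 48.4, 109.8 and 120.1 CPM and at 112, 151 and 215 CPM. By the rule for likeness, a Pearson correlation of log2(CPM + 1) with the mean of the 40 over 24 groups of type and library, the 10 nearest of 7190 other genes were Cep55, Kifc1, Depdc1a, Troap, Dlgap5, Mxd3, H2az2, Sgo1, Rad21 and H2az1, with correlations from 0.98 to 0.99. The points share libraries and sequencing depth, and the dividing groups set most of the range. Among the 40 themselves, Cdca8 and Nuf2 were nearest to the mean of the other 39, at 0.99 each, and Ttk and Mki67 farthest, at 0.88 and 0.89.

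Single cells showed the same order with wide overlap. The median cell had a UMI of 9 of the 40 genes in DivFB-S, 39 in DivFB-S/G2M and 29 in DivFB-G2M, with ranges of 1 to 36, 10 to 40 and 5 to 40. All 40 were found in 32 of 90 DivFB-S/G2M cells and in 1 of 118 DivFB-G2M cells. The medians of UMIs per cell also differ, at 24876, 31693.5 and 20294.5, and after thinning every cell to 5000 UMIs the median numbers of genes were 3, 26 and 15. As a share of the UMIs of a cell, the 40 genes took a median of 0.0658% in DivFB-S, 1.24% in DivFB-S/G2M and 0.569% in DivFB-G2M, and the S phase list 0.360%, 0.219% and 0.0469%. DivFB-S was the most mixed name: 18 of its 39 cells (46.2%, 30.1% to 62.8%) held at least 10 of the genes and 8 held at least 20, while 5 held 2 or fewer.

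**Figure D3:**
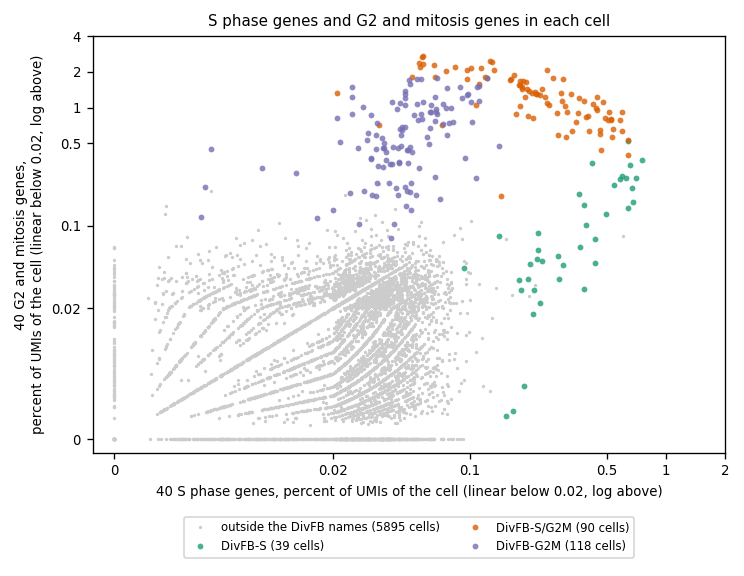
Each point is a cell, placed by the percent of its UMIs in the 40 S phase genes (horizontal) and in the 40 G2 and mitosis genes (vertical), on axes that are linear below 0.02% and logarithmic above; colours give the 3 dividing names and grey all other cells. DivFB-S lies at the right with medians of 0.360% and 0.0658%, DivFB-S/G2M above it at 0.219% and 1.24%, and DivFB-G2M to the left at 0.0469% and 0.569%.

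Between the gates, the dividing cells of the GFP-high tdT-high library held less of the 40 genes than GFP-high tdT-negative dividing cells, at 6956 and 9426 CPM, a ratio of 0.738 (0.721 to 0.756). With a threshold of 1.5-fold, 0 genes were higher and 10 lower, where 11% and 11.5% of all genes counted were. Ube2c was at 249.8 CPM in GFP-high tdT-high and 444 CPM in GFP-high tdT-negative dividing cells, Ccnb1 at 85.8 and 152 CPM, Cdc20 at 111 and 193 CPM, and Cdca8 at 111 and 189.9 CPM. Top2a was near even, at 622 and 658 CPM, and so were Bub1, at 87.6 and 96.1 CPM, and Smc2, at 312 and 354 CPM. Ttk was higher, at 70.4 and 50.6 CPM. The mix of names moved with this result: DivFB-S made up 26.2% (13.9% to 42.0%) of the GFP-high tdT-high and 14.7% (10.0% to 20.6%) of the GFP-high tdT-negative dividing cells, and DivFB-G2M 35.7% (21.6% to 52.0%) and 47.9% (40.6% to 55.2%). With the mean of each cell's CPM in place of summed UMIs, 3 genes were lower and the ratio of the sums was 0.822.

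Within single names, the GFP-high tdT-high library was lower in DivFB-S/G2M and DivFB-S and slightly higher in DivFB-G2M. In DivFB-S/G2M, 16 GFP-high tdT-high cells stood at 10194.5 CPM and 71 GFP-high tdT-negative cells at 14211 CPM, a ratio of 0.717 (0.696 to 0.739), with 0 genes higher and 12 lower (background 13.5% and 18.6%). The lowest ratios were those of Ccnb1, Cdc20, Cenpf, Ube2c and Cenpe. Ccnb1 was at 88.7 and 209 CPM, Cdc20 at 106 and 246 CPM, Cenpf at 402 and 858 CPM, Ube2c at 375 and 754 CPM, and Cenpe at 256 and 509 CPM. The genes nearest to even or higher were Ttk at 130.1 and 95.3 CPM, Bub1 at 154 and 148 CPM, Kif11 at 254 and 276 CPM, and Top2a at 1169 and 1272 CPM. The S phase list moved with this, at 3645 CPM in the GFP-high tdT-high and 2524 CPM in the GFP-high tdT-negative cells of that name, and its part in the result was not tested.

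In DivFB-G2M, 15 GFP-high tdT-high cells stood at 7515 CPM and 91 GFP-high tdT-negative cells at 6941 CPM, a ratio of 1.08 (1.04 to 1.13). The 40 genes took 0.135% to 1.79% of the UMIs of single cells in the first library and 0.0791% to 1.77% in the second. The interval does not cover this spread between cells. Here 3 genes were at least 1.5-fold higher, Aurkb at 28.3 and 14.8 CPM, Top2a at 235 and 138 CPM and Ttk at 22.7 and 13.2 CPM, and Kif4 was lower at 36.8 and 59.2 CPM (background 12.8% higher and 21.0% lower). Prc1 was next among the higher ones, at 198 and 135 CPM, and Cdca8, Bub1 and Cdca3 among the lower ones, at log2 ratios of -0.43, -0.36 and -0.30. Aurkb and Ttk rest on 10 and 8 UMIs in the GFP-high tdT-high cells, and their ratios of 1.91 (0.826 to 4.08) and 1.72 (0.668 to 3.96) include 1, as does that of Kif4 at 0.621 (0.321 to 1.11). In DivFB-S, 11 and 28 cells gave 913 and 1414 CPM, a ratio of 0.646 (0.563 to 0.738), with 2 of 27 counted genes higher and 15 lower (background 14.9% and 19.4%). Aurkb had 0 UMIs in the 11 cells and 12 in the 28. With 3 counts put in for the 0 this is 1.77-fold lower, a value that leaves out the counting error of the 12 UMIs. Cdca8 was at 3.28 and 24.7 CPM, Kif11 at 6.57 and 37.8 CPM and Racgap1 at 6.57 and 32.0 CPM, while Ttk at 26.3 and 13.1 CPM, Bub1 at 16.4 and 10.2 CPM, Ndc80 at 26.3 and 21.8 CPM and Smc4 at 154 and 153 CPM were at the other end.

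**Figure D4:**
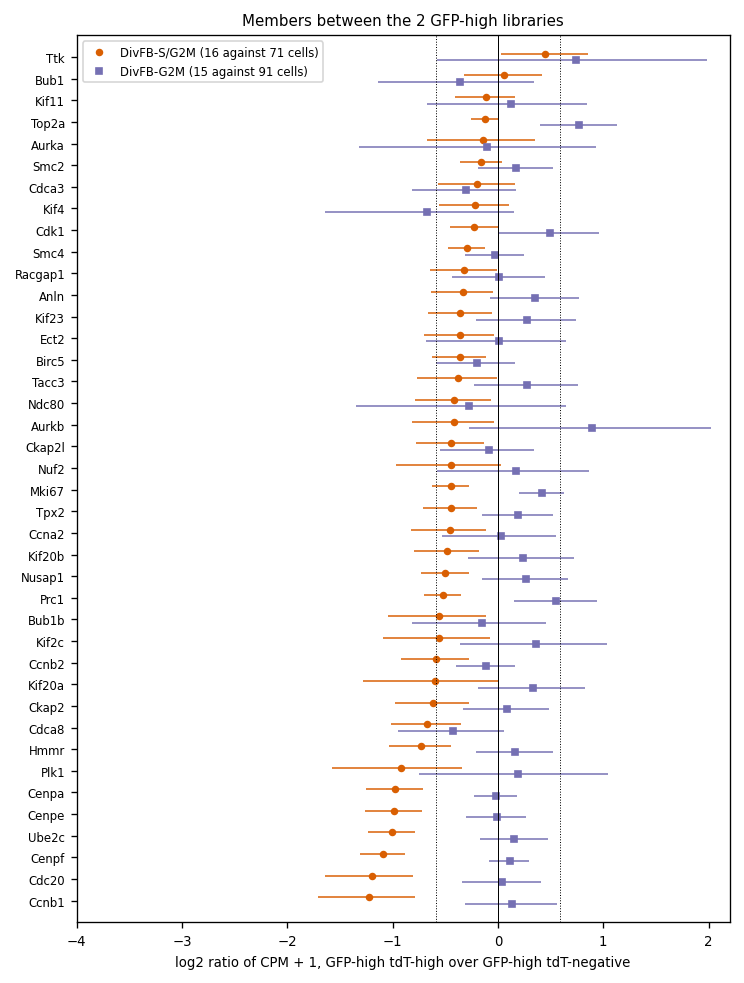
Log2 ratio of CPM + 1 of the GFP-high tdT-high over the GFP-high tdT-negative library for each gene, in DivFB-S/G2M (circles, 16 against 71 cells) and in DivFB-G2M (squares, 15 against 91 cells); bars are 95% counting intervals of the ratio without the pseudocount, and dotted lines mark 1.5-fold. Circles lie left of 0 for 38 of the 40 genes and reach -1.23 for Ccnb1, while squares centre near 0, with a median of 0.13.

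Outside the dividing names, the 40 genes were at 113 to 229 CPM in every type, against 8880 CPM in the dividing cells. Because 5895 of the 6142 cells are there, these cells still held 21430 of the 75927 UMIs of the 40 genes, which is 28.2% (27.9% to 28.5%). By library the share was 40.2% in GFP-high tdT-high, 22.5% in GFP-high tdT-negative and 53.0% in GFP-low tdT-negative cells, and after thinning to 5000 UMIs per cell it was 33.8%. The sums were 229 CPM in MyoFB-IMR, 182 CPM in MyoFB-Int and 149.9 CPM in MyoFB-Ter, which are myofibroblast names, 122 CPM in AdvFB, 135 CPM in MatFB-Im,Cuff, 115 CPM in MatFB-Type 1 and 113 CPM in MatFB-Type 2. MyoFB-IMR was the highest of these types for 18 of the 40 genes, and for 28.0% of all genes with at least 10 UMIs outside the dividing names.

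A few genes made up most of this signal. Smc4 gave 7165 UMIs, 33.4% of all outside the dividing names, followed by Mki67 with 2067, Nusap1 with 1664, Smc2 with 1251 and Cdk1 with 1097. Of the UMIs of Smc4, 69.8% lay outside the dividing cells, of Nusap1 49.6%, of Cdk1 42.0%, of Aurka 40.7%, of Smc2 37.3% and of Kif20a 36.6%. At the other end were Bub1 with 3.28%, Nuf2 with 3.70%, Hmmr with 3.83% and Cdca8 with 6.11%. Relative to the CPM of dividing cells, the level outside was 0.168% for Bub1 and 11.5% for Smc4, with a median of 0.622%. In the GFP-high tdT-negative library alone the percentages ran from 0.166% for Hmmr to 12.7% for Smc4, and the part of free RNA in these levels was not tested. A UMI of Smc4 was found in 55.5% of outside cells (22.6% after thinning to 5000 UMIs) and one of Bub1 in 0.271% (0.0339% after thinning).

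Mki67 had the highest ratio of myofibroblasts over AdvFB. Among GFP-high tdT-negative cells it was at 22.9 CPM in MyoFB-IMR, 28.2 CPM in MyoFB-Int and 24.5 CPM in MyoFB-Ter, against 1.34 CPM in AdvFB. The 3 myofibroblast names together stood at 25.8 CPM, 19.2-fold (10.7 to 38.6) above AdvFB, where Top2a was at 4.29 and 1.46 CPM, 2.94-fold (1.65 to 5.77). Cenpf, at 3.34 and 0.243 CPM, rests on 2 UMIs in AdvFB, for a ratio of 13.7 (3.75 to 114). Cenpa was at 8.53 and 2.19 CPM, Cdk1 at 11.6 and 3.41 CPM, Ube2c at 2.79 and 0.730 CPM and Smc4 at 72.9 and 45.1 CPM. Tpx2 was lower in the myofibroblasts, at 1.63 and 3.65 CPM, a ratio of 0.447 (0.292 to 0.703). Of the 40 genes 9 were past 2-fold upward in the myofibroblasts and 0 downward, against 9.89% and 8.18% of all genes in this comparison, which was added after the values were seen. With a pseudocount of 5 the number past 2-fold upward was 1. The Mki67 UMIs were spread over cells, with 402 of 1324 MyoFB-Int cells (30.4%) of that library holding at least 1 and no cell more than 11, against 9 of 328 AdvFB cells (2.74%). Median depth was 19459.5 UMIs in those MyoFB-Int cells and 24677.5 in those AdvFB cells.

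**Figure D5:**
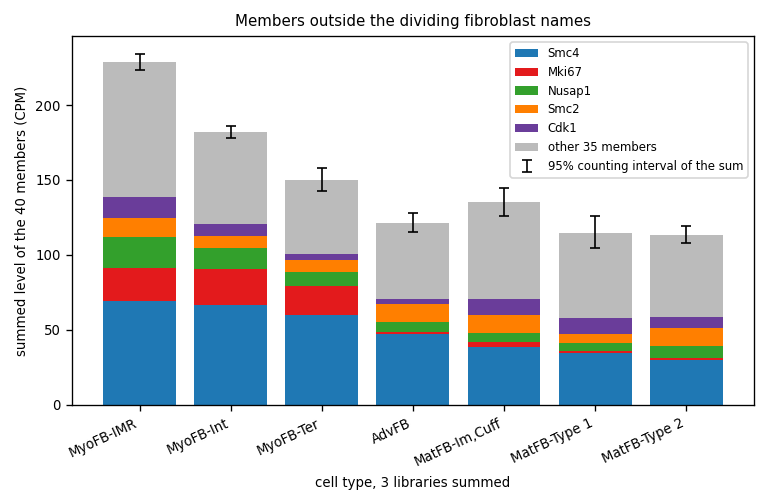
Summed level of the 40 genes in each type outside the dividing names (CPM, 3 libraries summed), with the 5 genes of most UMIs as colours and the other 35 in grey; error bars are the 95% counting interval of the sum. The red part, Mki67, is 19.3 to 24.3 CPM in the myofibroblast names and 1.21 to 3.33 CPM in the others.

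Ttk had the opposite distribution. It was at 5.96 CPM (4.75 to 7.38) in MatFB-Type 2 and 2.99 CPM (1.55 to 5.23) in MatFB-Type 1, against 0.207 to 0.408 CPM in the 3 myofibroblast names. In the GFP-low tdT-negative library 65 of 651 MatFB-Type 2 cells (9.98%) had a UMI of it, 83 in all and at most 3 in 1 cell, and 0 were found in the 148 AdvFB cells. No other gene of the list was highest in MatFB-Type 2. Anln, which shapes the contractile ring, was at 9.73 CPM in MatFB-Type 1, with 39 UMIs in 23 of 216 cells, and at 2.41 CPM in MatFB-Type 2. In 23 MyoFB-Ter cells of the GFP-low tdT-negative library Anln reached 31.3 CPM, of which 8 of 15 UMIs lay in 1 cell.

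Cells with many of these transcripts outside the dividing names were rare. At least 10 of the 40 genes were found in 12 of 5895 cells, which is 0.204% (0.105% to 0.355%), with at most 16, against 220 of 247 dividing cells. They were 5 MyoFB-Int, 2 MyoFB-IMR, 3 MatFB-Im,Cuff, 1 MatFB-Type 1 and 1 MatFB-Type 2, and none was MyoFB-Ter or AdvFB. By gate they were 2 GFP-high tdT-high, 4 GFP-high tdT-negative and 6 GFP-low tdT-negative cells. The MyoFB-Int cell with 16 genes had 47 UMIs of them in 25976, among them 10 of Cenpa, 5 of Cenpf, 5 of Ccnb2 and 5 of Mki67, with 1 of Top2a and 0 of Cdk1, Ccnb1 and Aurkb. In the MyoFB-IMR cell with 15 genes, 15 of 52 UMIs were Cenpf and 8 Cenpa, with 0 of Top2a, Cdk1, Ccnb1 and Aurkb. Aurkb was at 0 in all 12, and Cdk1 and Ccnb1 were at 0 in all but 3 and 2 of them. Their depth was 0.58 to 1.66 times the median of their type in the same library, and markers of immune, epithelial, mesothelial and endothelial cells gave at most 3, 2, 3 and 5 UMIs in any of them. With a lower limit of 5 genes there were 556 such cells, 18.5% of MyoFB-IMR, 8.85% of MyoFB-Int and 3.49% of MyoFB-Ter, against 5.0% of AdvFB, and none of the 5895 held 20.

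Between gates the myofibroblast names differed in the sum. MyoFB-Int was at 149 CPM when sorted as GFP-high tdT-high and 204 CPM as GFP-high tdT-negative, a ratio of 0.730 (0.697 to 0.765), with 1 of 36 counted genes at least 1.5-fold higher and 5 lower (background 4.11% and 2.79%). Cenpf was at 1.10 and 3.08 CPM, Cdk1 at 4.71 and 10.1 CPM, Cenpa at 3.83 and 7.35 CPM, Cenpe at 0.767 and 2.00 CPM and Ube2c at 1.48 and 2.75 CPM. MyoFB-IMR was at 211 and 238 CPM, a ratio of 0.886 (0.843 to 0.931), with 1 of 38 higher and 2 lower, Cenpf and Cenpe (background 4.34% and 1.93%). Cenpf was at 1.92 and 4.17 CPM there, and Ckap2l and Tacc3 followed at log2 ratios of -0.53 and -0.51, while Kif4, Ndc80 and Ect2 stood at 0.55, 0.51 and 0.50. Aurka went the other way in both names, at 2.92 and 1.32 CPM in MyoFB-IMR, a ratio of 2.21 (1.28 to 3.83), and at 3.07 and 1.60 CPM in MyoFB-Int, a ratio of 1.92 (1.27 to 2.93). It was followed in MyoFB-Int by Ccna2, Ccnb1 and Kif20a at log2 ratios of 0.32, 0.18 and 0.13. MyoFB-Ter was at 107 and 179 CPM, a ratio of 0.597 (0.531 to 0.671), with 0 of 19 genes higher and 8 lower (background 11.6% and 12.7%), among them Mki67 at 9.84 and 24.5 CPM, Cdk1 at 1.55 and 5.27 CPM, Tacc3 at 0.518 and 2.64 CPM and Ube2c at 0.518 and 1.88 CPM. Its highest ratios were those of Kif20a, Birc5, Top2a and Kif20b, at log2 values of 0.54, 0.12, 0.06 and 0.03. Most of these levels are a few CPM, and with a pseudocount of 5 the numbers past 1.5-fold were 1 in MyoFB-Int, 0 in MyoFB-IMR and 3 in MyoFB-Ter.

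The GFP-high and GFP-low gates were compared in AdvFB, MatFB-Im,Cuff and DivFB-G2M. AdvFB was at 119 CPM when sorted as GFP-high tdT-negative and 127 CPM as GFP-low tdT-negative, a ratio of 0.938 (0.839 to 1.05), with 2 of 24 genes higher and 3 lower (background 11.3% and 12.6%). Kif4 had 12 and 0 UMIs there, 1.79-fold higher with 3 counts put in for the 0 and the counting error of the 12 left out. Ckap2 was at 5.35 and 2.44 CPM, and Ccnb1 and Ect2 stood at log2 ratios of 0.44 and 0.37. At the lower end Kif20b was at 1.58 and 3.80 CPM, Prc1 at 3.77 and 7.06 CPM, Kif23 at 0.730 and 1.63 CPM and Cdc20 at 0.608 and 1.36 CPM. MatFB-Im,Cuff was at 112 and 147 CPM, a ratio of 0.756 (0.648 to 0.881), with 2 of 22 genes higher and 10 lower (background 18.1% and 15.5%). Cenpa had 1 and 30 UMIs, a ratio of 0.0679 (0.00166 to 0.408), and Cenpf 3 and 37, a ratio of 0.165 (0.0326 to 0.522). Cenpe had 0 and 12 UMIs and Cdca3 0 and 10. With 3 counts put in for each 0 these are 1.96-fold and 1.64-fold lower, leaving out the counting error of the 12 and 10 UMIs. Cdk1 was at 4.83 and 13.3 CPM, while Cdc20 was higher at 4.83 and 0.948 CPM, a ratio of 5.09 (1.47 to 22.2), and Nusap1 at 10.1 and 4.50 CPM, with Smc2 and Ckap2 next at log2 ratios of 0.38 and 0.23. Without its 3 cells with at least 10 of the genes, all of them GFP-low, MatFB-Im,Cuff had 8 genes lower and a ratio of the sums of 0.847.

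In DivFB-G2M, 91 GFP-high tdT-negative cells stood at 6941 CPM and 12 GFP-low tdT-negative cells at 5672 CPM, a ratio of 1.22 (1.16 to 1.29). Of the 40 genes 12 were at least 1.5-fold higher and 2 lower, against 28.5% and 18.9% of all genes counted. The number higher was thus near the share of all genes. The median log2 ratio was 0.31 for the 40 genes and 0.14 for all genes. Kif11, the spindle motor, was at 49.4 and 11 CPM, and with 3 UMIs in the GFP-low cells its ratio was 4.49 (1.49 to 22.2). Ccna2 was at 99.8 and 29.3 CPM, Ube2c at 252 and 91.7 CPM and Bub1 at 69.1 and 29.3 CPM. The 2 lower genes were Ttk, at 13.2 and 25.7 CPM with an interval of the ratio of 0.214 to 1.41, and Kif20b, at 101 and 158 CPM. Ckap2 and Hmmr were next, at log2 ratios of -0.39 and -0.36. The alveolar fibroblast markers given above also differ between these cells, and their part in the result was not tested.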

How the data were processed

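Per the labels' protocols the 3 libraries used 10x Genomics v3.1 chemistry for transcript 3' ends. The submitters' processing notes name Cell Ranger 7.0.0 and the mm10 build. What the authors deposited is 1 matrix of unnormalised counts, in UMIs, with genes as rows and the cells of all gates as columns. The authors' deposited cell table gives each cell's gate, type, total count and percent of mitochondrial UMIs (at most 19.3%, in cells of at least 2504 genes, so cells had been filtered). Cell filters, doublet removal and the naming of types are not given in the sources used here, and no cell was removed.

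For each type, and each type within a library, the UMIs of a gene were added up, divided by all UMIs of those cells and multiplied by 1e+06 (CPM). Ratios are log2 of CPM plus a pseudocount of 1, for genes with at least 10 UMIs in the groups compared, counted from 2-fold between dividing names and from 1.5-fold between gates. Intervals (95%) are exact Poisson, Clopper-Pearson or conditional binomial, cover counting error only, and treat UMIs as independent. A count of 0 was taken as at most 3 counts, and folds made with it leave out the counting error of the other count. There were 1 library per gate and no test. Cells were thinned once to 5000 UMIs. The intervals were run on simulated counts of independent UMIs with no spread between cells. That run therefore cannot show how they cover such spread. The 40 genes and the lists were chosen with earlier results of these data known. Genes named are 10 fixed genes, those at the ends of each comparison by ratio, level or percent outside, and the nearest genes by correlation. Any others, such as the partners of a complex, were chosen after their values were seen. Coordinates and overlaps are from GENCODE on GRCm38. Promoters are from the RefSeq table (35 of the 40 had an entry, not Ccna2, Aurkb, Kif20a, Tpx2 and Smc4). The tools were R 4.3.3 and Python 3.11.15 (scipy 1.17.1 for the intervals, pandas 2.3.3, matplotlib 3.10.9 for the figures), with TMM scaling (edgeR 4.0.16) and size factors (DESeq2 1.42.0) among the alternatives.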

Additional observations from a re-analysis of the deposited data

Results flagged for a closer look

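The summed level of the 40 genes went opposite ways between the GFP-high tdT-high and GFP-high tdT-negative libraries in 2 of the dividing names, which is what marked it. The ratio of the first library over the second was 1.08 (1.04 to 1.13) in DivFB-G2M, from 15 and 91 cells, and 0.717 (0.696 to 0.739) in DivFB-S/G2M, from 16 and 71 cells. In DivFB-S, from 11 and 28 cells, it was 0.646 (0.563 to 0.738). These intervals do not cover the spread between cells, and the difference between the names was not tested, since each gate has 1 library. The ratios of DivFB-G2M and DivFB-S/G2M kept their sides of 1 under TMM scaling (1.14 and 0.743), DESeq2 size factors (1.14 and 0.747) and the mean of each cell's CPM (1.18 and 0.756). The S phase list stood at 549 and 532 CPM in DivFB-G2M and at 3645 and 2524 CPM in DivFB-S/G2M of the same 2 libraries.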

How the results depend on the processing

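No paired analysis was possible because each gate has 1 library and the labels give no replicate numbers. The numbers of genes at least 2-fold higher in DivFB-G2M than in DivFB-S (30 to 37) and highest in DivFB-S/G2M (30 to 37) stayed within 1.5 times their values of 33 and 37 under all 9 alternatives. Those at least 2-fold lower in DivFB-G2M than in DivFB-S/G2M were 12 in the GFP-high tdT-high and 26 in the GFP-low tdT-negative library alone, and 20 to 23 under the others. Of 360 single-gene ratios of that step over the alternatives, 64 left their counting interval and 0 called ones changed sign, and TMM moved the step by -0.11 on the log2 scale.

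Genes past 1.5-fold between gates changed most. Past 2-fold they were 0 of 40 in dividing cells, 0 in MyoFB-IMR, 0 in MyoFB-Int, 3 of 19 in MyoFB-Ter, 4 in DivFB-S/G2M, 0 in DivFB-G2M, 12 of 27 in DivFB-S, 1 in AdvFB and 9 of 22 in MatFB-Im,Cuff, and 5 of 40 between the GFP-high tdT-negative and GFP-low tdT-negative cells of DivFB-G2M. For 2-fold between gates, and for the alternatives that follow, the share of all genes was not counted, so these numbers stand without a background. With a pseudocount of 5 the genes past 1.5-fold were 0 in MyoFB-IMR, 1 in MyoFB-Int, 0 in AdvFB and 7 in MatFB-Im,Cuff. With the mean of each cell's CPM they were 3 in dividing cells and 10 in AdvFB, and with no minimum 8 in AdvFB. The cause was not tested.

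The share of UMIs outside the dividing cells was 33.8% after thinning, and 40.2%, 22.5% and 53.0% in the GFP-high tdT-high, GFP-high tdT-negative and GFP-low tdT-negative libraries alone. Cells outside with many of the genes were 556 at a limit of 5 genes and 0 at 20. After thinning, which lowers detection by construction, they were 0 at a limit of 10 and 15 at a limit of 5. As a percent of the dividing cells, the summed level outside was 1.95% in all types and 2.58% in MyoFB-IMR, 2.05% in MyoFB-Int, 1.69% in MyoFB-Ter, 1.37% in AdvFB, 1.52% in MatFB-Im,Cuff, 1.29% in MatFB-Type 1 and 1.28% in MatFB-Type 2. Against the dividing cells of the same library it was 2.35% among GFP-high tdT-high, 2.09% among GFP-high tdT-negative and 1.57% among GFP-low tdT-negative cells. Genes at least 2-fold higher in myofibroblasts than in AdvFB were 1 with a pseudocount of 5, against 9. A CHR core lay within 100 bases of the start in 8 genes, against 14 in 250 bases. Depth limits the genes of few UMIs, such as Ccnb1 and Plk1 in DivFB-S, and no interval covers differences between pups or libraries.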
